A study of Drosophila melanogaster with 3 samples.

Results

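The reproducible (optimal) Elba2 peaks of the early fly embryo comprised 226 with an exact copy of the asymmetric 8-bp ELBA site, CCAATAAG, on either strand and wholly within 100 bp of the summit, and 3050 without one. The 226 were 6.90% of the set (exact 95% interval 6.05% to 7.82%). Peaks were chosen by their measured signal and summit, so the presence of the site, the ranks and the signal of these peaks are given below as descriptions. The study is a chromatin immunoprecipitation and sequencing experiment in Drosophila melanogaster, with 3 biological replicates of 1 group. All 3 came from embryos of both sexes aged 0 to 4 h, of the transgenic strain CG9883-GFP, in which Elba2 carries green fluorescent protein at its C-terminus. Chromatin sheared to 200 to 800 bp was pulled down through the tag, from whole embryos, so cell types are mixed. The control library used in peak calling was not used here, and read numbers were not used, so depth is unknown.

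ELBA is an insulator-binding complex of the early embryo, first described at the Fab-7 boundary of the bithorax complex, the gene cluster that patterns the abdomen. Elba1 and Elba2 contact DNA through BEN domains and Elba3 joins them, and the complex reads the asymmetric site as a whole. Insensitive, a related BEN-domain protein, reads the palindrome CCAATTGG as a pair of like subunits. In the following, the 226 are called site peaks and the 3050 other optimal peaks.

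All site peaks carry the same 8 bases by selection, and the bases around them differed among strong peaks at different kinds of place. The copies below come from the strongest site peaks and from wg, read 5′ to 3′ along the strand of the site, from the Release 6 genome (dm6), with capitals marking the ELBA site.
Ufd4, chr2L:10291418-10291447, minus strand: atccaatattgCCAATAAGtctctataaga
CG14104, chr3L:19807094-19807123, minus strand: gcgcaaaacggCCAATAAGacaaatgaaac
Pkc98E, chr3R:29040003-29040032, minus strand: ctgacgaaacgCCAATAAGtgcgctcaatt
Pkc98E, chr3R:29039159-29039188, plus strand: ctaacgtttttCCAATAAGaattggagtga
CG10413, chr2L:18604994-18605023, plus strand: gctgtcgcagaCCAATAAGaataatcacaa
cic, chr3R:20253356-20253385, minus strand: agagcccaatgCCAATAAGccgaatcgggg
Cph, chrX:7162738-7162767, minus strand: tttgcgcgtgtCCAATAAGcatactgtcgc
r-l, chr3R:21073261-21073290, plus strand: ctagctaggctCCAATAAGaaccgtccaat
wg, chr2L:7306841-7306870, minus strand: gccagcatggcCCAATAAGaaatggcggaa

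The strongest site peak lay in an intron of Ufd4, a ubiquitin ligase gene, with its summit 884 bp downstream of a TSS (transcription start site). It was the peak of rank 15 in the optimal set, and it ranked 21, 17 and 8 in replicates 1, 2 and 3. The next, 26 bp downstream of the TSS of CG14104 and beside Kap-alpha1, an importin gene, ranked 11, 23 and 37. A pair of site peaks lay at Pkc98E, a protein kinase C gene. Their summits were 852 bp apart, and each was measured from its own nearest Pkc98E TSS. The one 192 bp downstream of its TSS ranked 18, 12 and 58 in the replicates. The one 14 bp downstream of another TSS, shared with the splicing factor gene Slu7, ranked 36, 75 and 18. These 4 peaks were high in every replicate.

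Developmental regulators were also among the 25 strongest site peaks. The peak 255 bp upstream of wg, the Wnt ligand of segment polarity, ranked 83, 170 and 41 in replicates 1, 2 and 3. In replicate 1 the matched summit was 118 bp from the centre of the site. At cic, whose HMG-box repressor is relieved by receptor tyrosine kinase signalling, the summit lay in the 5' UTR, 585 bp from the TSS, and ranked 42, 64 and 44. At Fer3, a bHLH gene, the summit lay 50 bp upstream of the TSS and 0.5 bp from the centre of the site, and ranked 65, 192 and 62. The summit in an intron of Cph, a zinc-finger gene, was 25037 bp from the TSS and ranked 84, 41 and 42. One peak had the proneural gene l(1)sc as its nearest gene, 2093 bp away, but lay in an intron of CG32816, and it ranked 174, 175 and 178. The peak nearest CG13627 lay in an intron of slo, a potassium channel gene, and ranked 322, 149 and 106.

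The rest of the 25 lay at genes of mixed function. Among them was r-l, whose enzyme carries out the last steps of pyrimidine synthesis, with ranks 64, 84 and 53 in replicates 1, 2 and 3. NANS, a sialic acid synthase gene, and Pp1-87B, a protein phosphatase gene, shared a peak that ranked 109, 33 and 127. Polr3A, the largest subunit of RNA polymerase III, had a peak ranking 191, 92 and 329. Kap3, a kinesin-associated protein gene, had one ranking 125, 122 and 99, and Usp5, a deubiquitinase gene, one ranking 90, 188 and 183. The peak in an intron of egl, whose product links mRNA to dynein, spread the most of the 25, with ranks 480, 32 and 139. P5CDh1, tun, Galphao, yps, CG10413, CG4278 and CG10565 also lay nearest to peaks among the 25. The remaining peaks of the 25, nearest eEF1gamma and CG15629, were 4909 and 1488 bp from those coding genes and counted as promoter peaks through a non-coding TSS.

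Site peaks were less often at promoters than the other optimal peaks, and more often in coding exons and introns. A summit within 500 bp of an annotated TSS was counted as promoter, which held for 97 of 226 site peaks (42.9%) and 1905 of 3050 other optimal peaks (62.5%). The odds ratio was 0.452 (two-sided Fisher's exact test, Benjamini-Hochberg adjusted p = 7.84e-08). Replicates 1, 2 and 3 were also taken alone, each at its top regions by signal, as many as there are optimal peaks. In them, 46.6%, 43.0% and 39.7% of regions with the site were at promoters, against 64.8%, 61.5% and 59.1% of the others. The means were 43.1% ± 3.49 with the site and 61.8% ± 2.89 without it (SD, n = 3), and the replicate values did not overlap. With the shares of a replicate taken as a pair, site minus other, the promoter difference was -18.2, -18.5 and -19.4 percentage points in replicates 1, 2 and 3 (mean -18.7 ± 0.627, SD, n = 3). Its exact sign-flip test gave p = 0.25, the smallest that 3 pairs allow. All tests here count each peak as independent; neighbours along a chromosome are not, and the replicate lists share many peaks.

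Coding exons held 27 site peaks (11.9%) and 96 other optimal peaks (3.15%), an odds ratio of 4.17 (Fisher's exact test, adjusted p = 1.05e-07). Replicates gave 8.52%, 14.0% and 11.4% with the site, against 2.00%, 3.69% and 4.48% without it, a paired difference of 7.92 ± 2.09 percentage points (SD, n = 3). Introns held 68 site peaks (30.1%) and 650 other optimal peaks (21.3%), an odds ratio of 1.59 (Fisher's exact test, adjusted p = 0.00795). Intergenic sequence held 27 site peaks and 294 others (Fisher's exact test, adjusted p = 0.433), and the UTR and other exon classes, with at most 3 site peaks each, did not pass either. The coding exon and intron results were singled out after the values of all 7 classes were seen.

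**Figure D1:**
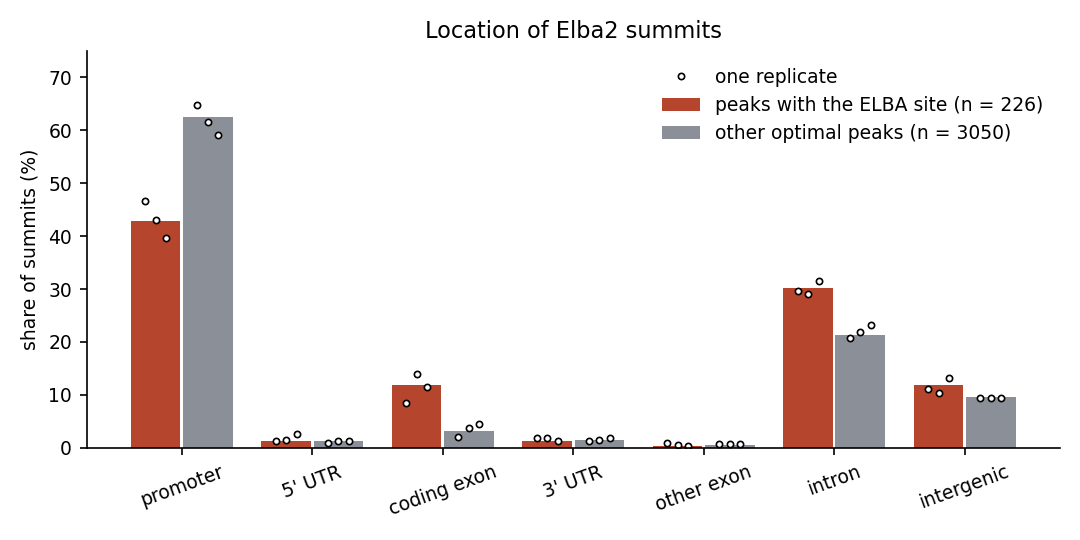
Share of summits in each location class, in percent of peaks, for the 226 peaks with the ELBA site (red) and the 3050 other optimal peaks (grey), with open points for the top regions of each replicate. Promoters hold 42.9% of the red and 62.5% of the grey summits, and coding exons hold 11.9% and 3.15%.

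A like contrast at weak regions gave a smaller promoter gap and no coding exon gap. Among the 23209 background regions, which lie over 1000 bp from every optimal summit, 18.5% of the 444 with the site and 26.7% of those without it were at promoters. Coding exons held 13.5% and 12.9% of them. When the other optimal peaks were limited to the 280 with the Insensitive palindrome and no ELBA site, no location class passed. Promoters then held 42.9% of site peaks and 51.1% of palindrome peaks (Fisher's exact test over the classes, adjusted p = 0.258), and coding exons 11.9% and 7.14% (adjusted p = 0.258). The median GC content within 100 bp of the summit was 42.8% in site peaks and 39.3% in other optimal peaks, and its part in the location result was not tested.

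The copy nearest the summit in each of the 27 coding exon peaks lay wholly in coding sequence. The strongest such peak, in mRpS24 and the overlapping TBC1d7, ranked 290, 119 and 230 in replicates 1, 2 and 3. Others lay in Hen1, the methyltransferase of small RNAs, with ranks 357, 585 and 161, in gw, the GW182 protein of microRNA silencing, with ranks 547, 578 and 162, and in PolH, a translesion DNA polymerase, with ranks 579, 586 and 314. The peak in fz, the Frizzled receptor of Wnt and planar polarity signalling, was weaker, with ranks 2919, 2723 and 1542. Of the 27, 22 (81.5%) were in the top regions of all 3 replicates, as were 39 of the 96 other coding exon peaks (40.6%) and 56.3% of all optimal peaks. The 27 were also stronger, with a median signal of 168 against 137 in the 96. Recovery moved with signal, as given below, and coding exon peaks of like signal were not compared. The median distance of the 27 to a coding TSS was 1019 bp. These genes were chosen after their values were seen.

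At promoters, the 92 site peaks within 500 bp of a protein-coding TSS touched 120 genes, of 13968 (0.859%). One gene lay at 63 of these peaks and 2 genes at 29. The summit was upstream of the nearest coding TSS in 54 and downstream in 38, with a median distance of 114 bp. Promoter peaks at 2 or more coding genes made up 29 of 97 site peaks (29.9%) and 793 of 1905 other promoter peaks (41.6%), which missed the threshold (Fisher's exact test, adjusted p = 0.0905). The call depends on the libraries: without replicate 3 the shares were 30.7% and 45.4% (Fisher's exact test, adjusted p = 0.0271). Replicates 1, 2 and 3 alone gave 27.9%, 27.2% and 28.7% with the site, against 43.5%, 41.8% and 34.3% without it. Fisher's exact tests on these gave adjusted p = 0.00552, 0.0223 and 0.47. The strand of the site followed that of the nearest gene in 48 of 90 promoter peaks (exact binomial test, adjusted p = 0.838). It followed that of the host gene in 33 of 63 intronic peaks.

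Few genes of the developmental and housekeeping lists had a site peak within 500 bp of a TSS. Against 0.859% of all protein-coding genes, 1 of 8 Hox genes (Abd-B), 1 of 7 Wnt ligands and 1 of 19 segment polarity genes (wg in both), and 1 of 12 BMP pathway genes (scw) had one. So did 1 of 32 proteasome genes (Rpt4), 1 of 13 glycolysis genes (Pglym78) and 1 of 19 sarcomere genes (sls). The other 13 lists had none, among them 92 cytosolic and 73 mitochondrial ribosomal protein genes, of which 36 (39.1%) and 25 (34.2%) had some optimal peak, as did 2495 of all 13968 coding genes (17.9%). Counts of 1 do not set a list apart. The scw peak, 115 bp upstream of this BMP ligand gene, ranked 1852, 2279 and 2446 in replicates 1, 2 and 3. The peak of Rpt4, a proteasome ATPase gene, is shared with mldr and ranked 679, 933 and 1188. At Pglym78, a phosphoglycerate mutase gene, the ranks were 607, 1103 and 478. At sls, the titin-like sarcomere gene, they were 1635, 2777 and 3934.

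In the bithorax complex, where the site was first described, the span from abd-A to Abd-B held 10 optimal peaks, of which 2 were site peaks. With 500 bp added at each end it held 11, of which 3 were site peaks. The site peaks were of middling rank. One lay 109 bp upstream of an Abd-B TSS and ranked 2771, 4115 and 937 in replicates 1, 2 and 3. Its matched summit in replicate 2 was 179.5 bp from the centre of the site, against 56.5 bp in replicates 1 and 3. One in an Abd-B intron, 1915 bp from a TSS, ranked 2530, 1415 and 3142. One nearest MSAmiP, a gene between the 2 Hox genes, ranked 2806, 1306 and 1573. The strongest optimal peak there, 15012 bp from an Abd-B TSS, had no copy of the site. The margin was added after the peak 109 bp upstream of Abd-B was seen to fall outside the span.

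Most copies of the site in the genome were not at an optimal summit. The 7 chromosome arms held 4159 copies, of which 232 (5.58%) lay wholly within 100 bp of an optimal summit and 720 (17.3%) of any summit in the pooled list. The same bases read backwards, GAATAACC, had 2444 copies, of which 13 (0.532%) were at an optimal summit. By location, 99 of 535 promoter copies (18.5%) were at an optimal summit, as were 28 of 450 coding exon copies (6.22%), 71 of 1629 intron copies (4.36%) and 28 of 1344 intergenic copies (2.08%). Promoter copies were thus at optimal summits most often of these classes, while promoters made up a smaller share of site peaks than of other optimal peaks. In windows of 100 bp on either side, the site was present at 6.90% of optimal summits, 1.91% of background regions and 0.601% of protein-coding gene starts. The start taken for each gene was its annotated TSS of lowest coordinate. For a minus-strand gene with several TSSs this is the most downstream of them.

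**Figure D2:**
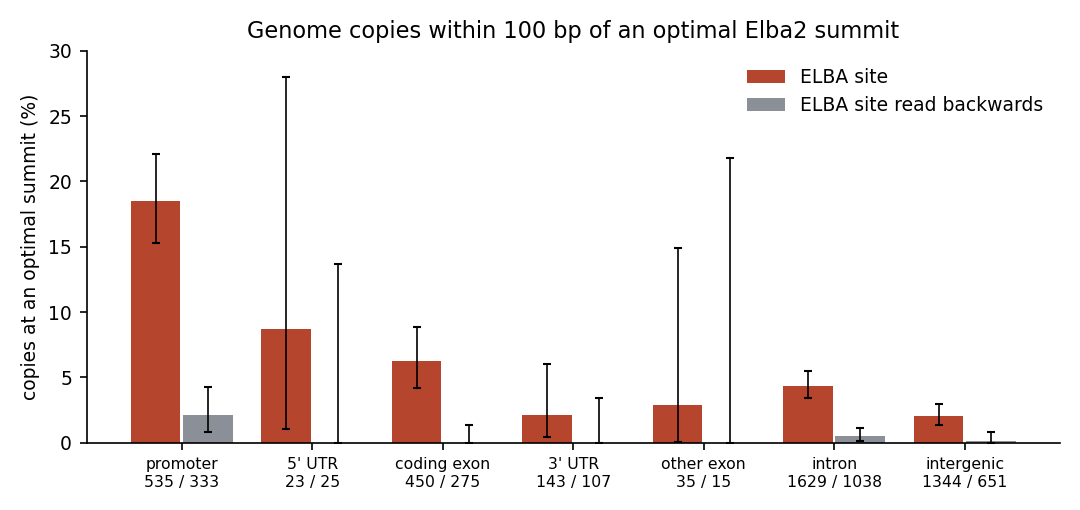
Share of genome copies lying within 100 bp of an optimal summit, in percent, by location class, for the ELBA site (red) and the same bases read backwards (grey), with exact 95% binomial intervals; the 2 numbers under each class are the copies of each word. For the ELBA site the share is 18.5% in promoters and 2.08% in intergenic sequence.

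Copy number was nearly always 1. Within 100 bp of the summit, 220 site peaks had 1 copy, 6 had 2 and none had 3. The spacing between the starts of the 2 copies was 19 bp at Arms, 55 bp in an intron of pros, 63 bp at Pkc98E, 65 bp in an intron of pum, 72 bp at fuss and 90 bp near caps. Both copies were on the same strand in 5 of the 6 and faced each other in pum. The product of pros is a homeodomain factor of neural fate, that of pum represses translation, that of fuss belongs to the Ski/Sno family and that of caps is a leucine-rich repeat adhesion protein. The fuss peak ranked 625, 725 and 1378 in replicates 1, 2 and 3, the pum peak 1475, 415 and 1150, the caps peak 751, 424 and 796, and the pros peak 1612, 887 and 1441.

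The stretches between the paired copies differed in length and bases, as the 3 examples below show, each read along the plus strand of dm6 with capitals marking the site (CTTATTGG is its reverse complement).
fuss, chr4:978591-978692, same strand: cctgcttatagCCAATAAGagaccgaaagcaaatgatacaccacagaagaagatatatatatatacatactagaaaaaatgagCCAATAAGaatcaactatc
pum, chr3R:9236233-9236327, facing: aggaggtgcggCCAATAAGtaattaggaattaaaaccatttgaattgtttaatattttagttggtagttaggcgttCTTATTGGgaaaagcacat
pros intron, chr3R:11344144-11344228, same strand: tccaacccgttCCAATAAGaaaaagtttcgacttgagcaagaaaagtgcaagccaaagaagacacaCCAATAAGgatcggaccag

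A copy over 100 and up to 500 bp from the summit was present at 7 of 226 site peaks (3.10%) and 129 of 3050 other optimal peaks (4.23%). The odds ratio was 0.724 (adjusted p = 0.838 by Fisher's exact test). The selection shaped this comparison, so it cannot decide whether further copies are more frequent in site peaks. By selection, the other optimal peaks had no copy nearer the summit, so a copy there was their nearest. In site peaks it came on top of the copy within 100 bp. Nearest copies were also more frequent just past the window, with 34 optimal peaks at 100 to 149 bp and 9 at 450 to 499 bp. Within 500 bp of the summit, 13 site peaks had 2 copies, 9 of them on one strand. Gaps between neighbouring site peaks along the chromosome were mostly long. They were not set against gaps of the other optimal peaks or against random placement, so whether site peaks cluster was not tested. Of 220 gaps between neighbours, 8 were under 5000 bp and 3 under 1000 bp, at 725 bp in Wdr62, 852 bp at Pkc98E and 878 bp in pros, and the median gap was 344316 bp.

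**Figure D3:**
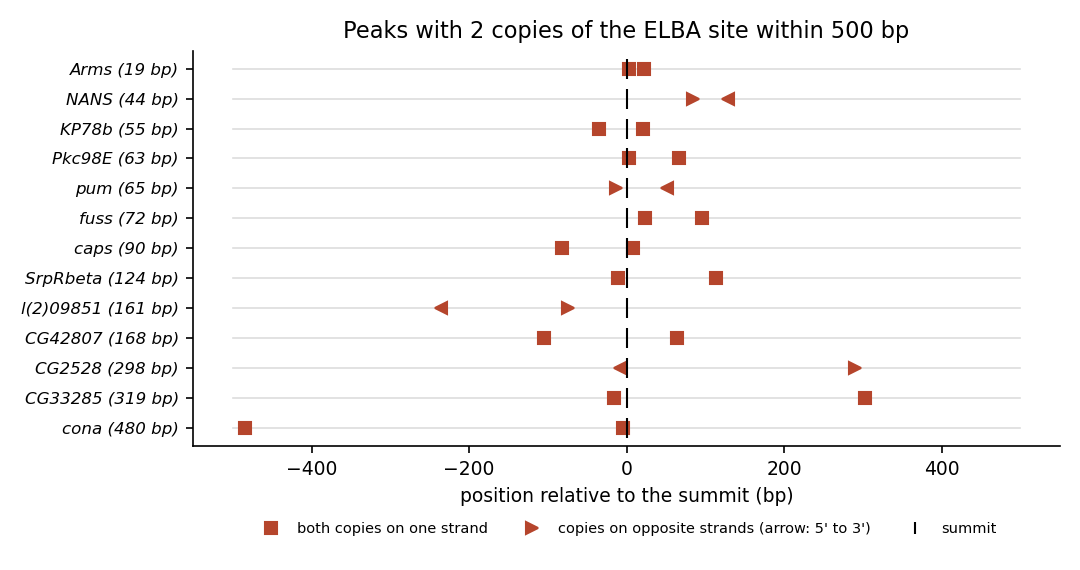
Positions of the 2 copies of the ELBA site, in bp from the summit, at the 13 site peaks with 2 copies within 500 bp, named by the nearest coding gene and ordered by spacing in parentheses (the KP78b peak lies in an intron of pros). Squares stand for copies on one strand and arrows for copies on opposite strands; the black tick is the summit, and in 6 peaks both copies lie within 100 bp of it.

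The summit lay close to the site, within the window that the selection set. The median distance from the centre of the site to the pooled summit was 27.5 bp, and 104 of 226 summits (46.0%) were within 25 bp. The same copies were at a median of 28.5, 34.5 and 37 bp from the summits of replicates 1, 2 and 3. Distances to the far end of the site, in place of its centre, were also counted in bins of 50 bp. By that measure the nearest copy fell at 0 to 49 bp in 153 optimal peaks, 50 to 99 bp in 73, 100 to 149 bp in 34 and 450 to 499 bp in 9. Read along the site, the summit lay on its 3′ side in 100 of 220 peaks with 1 copy (45.5%, exact 95% interval 38.7% to 52.3%), a departure from an even split that missed the threshold (two-sided exact binomial test, adjusted p = 0.467). Replicates gave 47.2%, 45.0% and 44.3%.

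**Figure D4:**
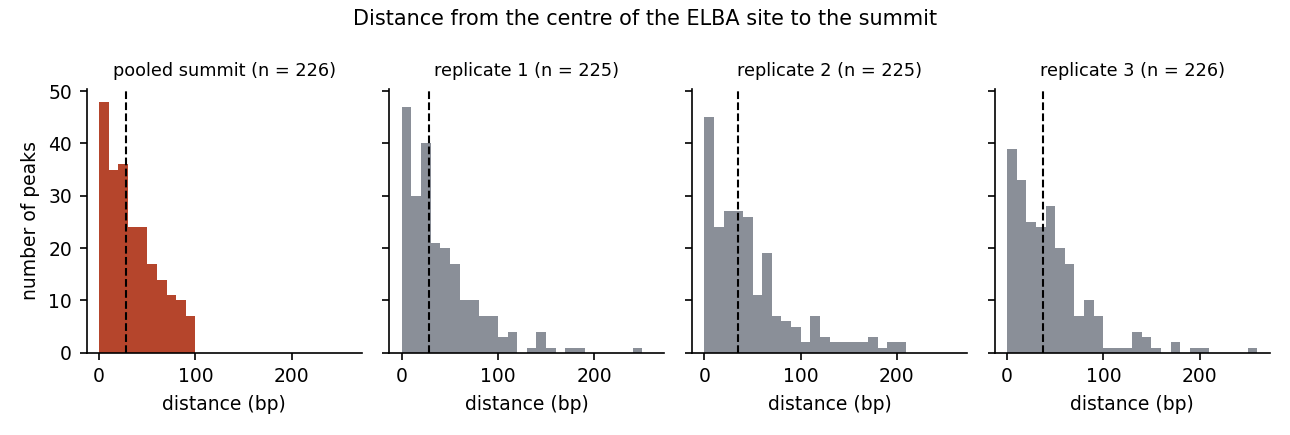
Number of site peaks by distance in bp, in bins of 10 bp, between the centre of the ELBA site and the summit in the pooled list (red) and in replicates 1, 2 and 3 (grey), with dashed lines at the medians of 27.5, 28.5, 34.5 and 37 bp. The pooled distances end at 92.5 bp because the selection asked for a copy within 100 bp.

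The base right after the site was most often A. It was A at 127 of the 232 copies in site peaks (54.7%), as in the wg and r-l copies printed above. Of 2573 unbound copies, over 1000 bp from every pooled region, 20.3% had A there (odds ratio 4.74, adjusted p = 8.26e-26 by Fisher's exact test). Of 451 copies at background regions, 40.1% had it (odds ratio 1.80 by Fisher's exact test, adjusted p = 0.0276). Among all genome copies, 11.9% of those followed by A were at an optimal summit, against 4.34% of those followed by C, 3.39% by T and 2.06% by G. This base was singled out after all flanking positions were seen.

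The number of bases that passed moved with the copies used for comparison. Of 80 base and position tests, 20 passed against unbound copies, 10 when unbound copies with the same surrounding bases were counted once, and 1, the A after the site, against copies at background regions. The 2573 unbound copies held 1664 distinct surroundings. Without coding-exon copies, the A against background regions gave an odds ratio of 1.61 and no longer passed (Fisher's exact test, adjusted p = 0.586). Among site peaks, the 123 with A after the listed copy had a median signal of 199, the 50 with C 177, the 36 with T 200 and the 17 with G 169. The medians with A and with T were thus alike and the highest of the 4 bases.

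None of the 10 other words searched differed past the threshold between site peaks and other optimal peaks. In the top regions of replicates 1, 2 and 3 taken alone, 0, 1 and 0 words passed. In the optimal set, 3 words had an unadjusted p under 0.05. M1BP's GGTCACAC, a housekeeping promoter element, was in 3.10% of site peaks and 6.98% of other optimal peaks, the DRE TATCGATA in 2.21% and 5.57%, and the TATA box TATAAA in 17.7% and 25.3% (Fisher's exact tests, adjusted p = 0.101 each). Both strands were searched within 100 bp of the summit. Windows of the same length at protein-coding gene starts, chosen as above, held these 3 words at 6.31%, 7.29% and 28.9%. Background regions held them at 1.57%, 1.80% and 22.1%. Among promoter peaks alone, GGTCACAC was in 6.19% with the site and 10.5% without it (adjusted p = 0.531 by Fisher's exact test). The GAGA repeat GAGAGAG was in 4.87% of site peaks and 5.18% of other optimal peaks, and in 3.74% of gene start windows. The Zelda site CAGGTAG was in 2.65% and 1.57%, and in 1.12% of gene start windows, and the initiator TCAGTT in 8.41% and 11.7%, and in 21.5% of gene start windows. The CA repeat CACACACA was in 7.08% of site peaks and 5.97% of the others, and in 3.13% of gene start windows. The backwards site GAATAACC was in 0.442% and 0.393%, and in 0.401% of gene start windows. CCAATAGG was in 3.10% and 4.23%, and in 0.193% of gene start windows. Adjusted p ran from 0.397 to 0.757, or 1 for the GAGA repeat, by Fisher's exact tests. CCAATAGG differs at 1 base from the site and at 1 from the palindrome.

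The Insensitive palindrome was present at 20 site peaks (8.85%) and 280 other optimal peaks (9.18%), with an odds ratio of 0.960 (adjusted p = 1 by Fisher's exact test). It was in 1.78% of background regions and 0.766% of windows at gene starts. At these 20 peaks the starts of site and palindrome were 14 to 119 bp apart in 21 pairs, with a median of 46 bp, and the palindrome lay towards the 3′ end of the site in 11. The strong peaks at Ufd4, Cph, r-l and Pkc98E, whose ranks are given above, were among them. So were peaks at Dronc, an initiator caspase gene, with ranks 569, 716 and 707 in replicates 1, 2 and 3, at rdx, whose product targets the Hedgehog effector Ci for degradation, with ranks 1129, 565 and 256, and at tara, with ranks 2546, 1215 and 2160.

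A short and a longer arrangement of site and palindrome are printed along the plus strand of dm6, with both words in capitals.
Dlic, chrX:11156159-11156203, 15 bp apart: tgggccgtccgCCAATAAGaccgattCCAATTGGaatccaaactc
Ufd4, chr2L:10291418-10291469, 22 bp apart: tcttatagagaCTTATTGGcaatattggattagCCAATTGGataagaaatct
cona, chr3R:18385695-18385770, 46 bp apart: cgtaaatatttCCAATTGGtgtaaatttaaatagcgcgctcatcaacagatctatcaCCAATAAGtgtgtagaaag

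Dlic, a dynein light intermediate chain gene, had this pair in an intron and its peak ranked 1468, 718 and 680 in replicates 1, 2 and 3. At cona, a synaptonemal complex gene, the summit lay 68 bp upstream of the TSS and the ranks were 700, 360 and 428.

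Site peaks ranked higher in the replicates than other optimal peaks. Their median rank was 1202, 1154 and 927.5 in replicates 1, 2 and 3, against 1594, 1640 and 1706 for the other optimal peaks. In the top regions of all 3 replicates, as defined above, were 167 of 226 site peaks (73.9%) and 1677 of 3050 others (55.0%), where 56.3% of the whole set was. The median signal, on the authors' unstated scale, was 192.7 in site peaks and 157.1 in the others. The recovery moved with the signal. In the strongest quintile of the optimal set, 100% of 73 site peaks and 99.0% of 583 others were in all 3. In the next quintile the shares were 98% and 91.1%, in the middle one 82.2% and 62.0%, in the one after it 22.2% and 23.1%, and in the weakest 4.35% and 4.27%. The optimal set was itself made from these lists, so these values are descriptions.

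**Figure D5:**
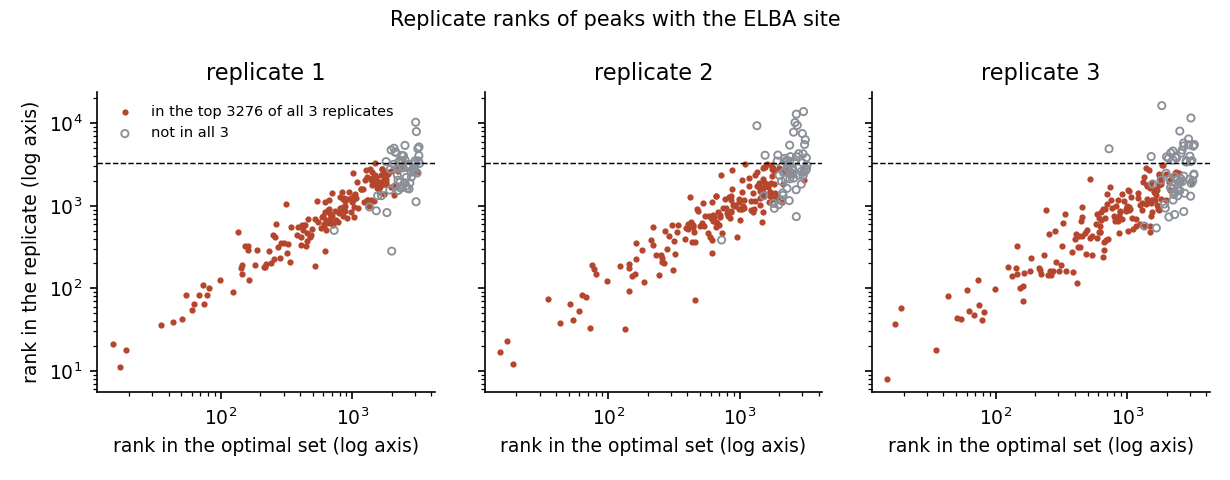
Rank of each site peak in replicates 1, 2 and 3 (vertical log axis) against its rank in the optimal set (horizontal log axis); red points are the 167 peaks in the top regions of all 3 replicates, grey circles the remaining site peaks and the dashed line the lowest top rank. Peaks absent from a replicate's list, 1 in replicate 1 and 1 in replicate 2, are not drawn there, and the scatter widens towards weak peaks.

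Some site peaks rested on part of the replicates. The peak in CG31937 was absent from the list of replicate 1 and ranked 739 and 2285 in replicates 2 and 3. The peak in lbk, nearest CG10734, was absent from replicate 2 and ranked 1326 and 538 in replicates 1 and 3. At Hrs, an ESCRT-0 gene, the ranks were 827, 931 and 16340. The summits matched there in replicates 1 and 2 lay 178 and 209.5 bp from the centre of the site. That of replicate 3 lay 11.5 bp from it, so the 3 ranks may not describe the same summit. In all, 7 site peaks and 291 other optimal peaks were absent from a replicate or ranked below 10000 in one. At the other end, 10 of the 226 site peaks were within the top 100 of every replicate and 37 within the top 500. The like counts were not made for the other optimal peaks, so these do not set site peaks apart.

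The edges of the selection were gradual. The weakest site peaks, nearest CG43693, CG8399 and Pax, had signals of 109.5, 110.0 and 110.2. The first regions with the site under the optimal set, nearest ZnT41F, Eip75B and trbd, had 109, 108 and 108. The far end of the site was 96, 96 and 95 bp from the summit in the outermost site peaks, at tun, ZnT86D and AdamTS-B, and just over 100, 102 and 103 bp in the nearest peaks left out, at Rilpl, Synd and Hexim. By arm, 3R held 70 site peaks of 802 optimal peaks (8.73%), 2R had 31 of 601 (5.16%), and the small chromosome 4 had 4 of 36 (11.1%). The X had 34 of 226 site peaks (15%) and 479 of 3050 other optimal peaks (15.7%), a difference that missed the threshold (Fisher's exact test, adjusted p = 0.850).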

How the data were processed

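Elba2 pull-downs from 3 replicates were used as peak lists on dm6. Per the notes deposited with the samples, the authors called permissive regions for each replicate and for the 3 pooled against a control alignment, and took the optimal set by irreproducible discovery rate. Which aligner, peak caller and threshold were used is not given in the sources used here. The deposited signal value of each region has no stated scale and served to rank regions within a list. The deposited −log10 q-value broke ties. The deposited summit offset gave summits. Depth is unknown.

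The members, words, gene lists and tests were chosen with earlier results of these data known. Sequence came from the Release 6 genome and genes from Ensembl release 115 (FlyBase 6.54). Coordinates are 1-based. Transposable elements were left out of the annotated genes after the values with them had been seen; with them, promoters held 99 of 226 site peaks (43.8%) and 1929 of 3050 others (63.2%). A summit took the class promoter first, then 5' UTR, coding exon and 3' UTR, then any remaining exon, then intron, and otherwise intergenic. Summits within 200 bp were matched between lists, taking the region of highest signal. Some matched replicate summits thus lay over 100 bp from the site. A replicate's top regions by signal, as many as the optimal peaks, stood for that replicate. Two-sided Fisher's exact tests and exact binomial tests were adjusted by Benjamini-Hochberg within families of 7 single comparisons, 7 classes, 10 words and 80 base tests, with 0.05 as threshold. Exact (Clopper-Pearson) 95% intervals cover counting error only. Gene list members matched coding genes by symbol or synonym except 2, Dl and calypso. Named genes were the nearest coding genes of the 25 strongest site peaks, of those with 2 copies or the palindrome, and bound list members. Further genes were picked with their values in view. Alternatives varied the window, TSS distance and set, copy range, reference copies, peak set and replicates. Functions were tested on simulated peaks planted in the real genome. Python 3 with scipy was used.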

Additional observations from a re-analysis of the deposited data

How the results depend on the processing

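The promoter, coding exon and flanking-base results kept their direction and side of the threshold under each changed window, distance, peak set and left-out replicate; intron and other exceptions follow. The share of peaks with the site was 4.79% with a window of 50 bp, 8.55% with 200 bp, 8.97% in the strongest 50% of peaks, 9.06% in peaks recovered in every replicate, and 7.82% to 8.78% with 1 replicate left out. Odds ratios of promoter peaks at 2 or more genes passed at 0.557 (window of 200 bp) and 0.532 (without replicate 3), and ran from 0.532 to 0.633 over the left-out replicates. The summit's 3′ share passed at 42.2% with 200 bp, as did 2 words. The X odds ratio changed side, without passing, at 1.06 (200 bp), 1.18 (strongest 50%) and 1.05 (recovered in every replicate), with 0.994 to 1.11 over left-out replicates. The strand share at promoters was 49.3% to 51.9% over left-out replicates, and that in introns 42.9% with 50 bp. Introns lost the call at 1.51 (50 bp) and 1.45 (TSS within 1000 bp). Alternatives chosen after seeing the data were the palindrome peaks (0.720 for promoters, 1.76 for coding exons, 1.24 for introns, 0 classes passing), unbound copies with the same bases counted once (10 base tests) and coding-exon copies left out (1.61 for A). Copies at background regions left 1 base test. Site peaks in the top regions of all 3 replicates numbered 156 with summits matched within 100 bp and 171 within 500 bp, against 167. Causes were not tested. The mean of paired differences equals the difference of the means. Pairing the shares within each replicate thus could not change the promoter, coding exon or intron direction. Unknown depth limits what weak peaks show.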
